A study of Mus musculus with 12 samples.

Results

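The guanylate-binding proteins (Gbp) and the immunity-related GTPases (Irg) are 2 families of large GTPases that interferon-gamma induces strongly in mouse cells, and they were followed here together with Irf1, a transcription factor of the same pathway. The set named 10 genes, Gbp2b, Gbp2, Gbp3, Gbp4, Gbp7, Irgm1, Irgm2, Igtp, Iigp1 and Irf1. A gene was taken where a transcript cluster of the array carried its symbol and no other, at the cluster with the highest mean where there were several. This gave 7 genes of the 19938 whose symbol has a cluster of its own. Gbp2, Irgm2 and Igtp were found only in clusters that carry several symbols, which are described separately.

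Lung RNA was measured in 12 mice, 3 in each of 4 groups, on Affymetrix MoGene 1.0ST arrays, 1 array per mouse, 5 days after 30 µL of PBS, alone or with 0.075 U of bleomycin, was given into the trachea. The groups were Fra-1 +/+ mice with PBS (WTC) or bleomycin (WTT) and Fra-1 knockout mice with PBS (KOC) or bleomycin (KOT), and a mouse is written as WTC 76, its group followed by its animal number. All were of mixed C57/129S background, labelled female and 2 months old, though the methods give an older range in weeks. Both genotypes carry floxed Fra-1 alleles, and the methods call the floxed mice without Cre Fra-1 +/+. In the knockout the alleles are deleted by a Meox2 (Sox2)-Cre transgene, which acts in the embryo and spares the extra-embryonic tissues. Only KOC and KOT mice thus carry Cre, so an effect of Cre cannot be told apart from the loss of Fra-1. No sample is of a purified cell type, so a lower signal can mean fewer cells of a type or less RNA per cell, and these cannot be told apart. Bleomycin is a DNA-damaging drug used to start lung injury and fibrosis in mice, and the comparisons ask how that injury and the loss of Fra-1, a subunit of the AP-1 transcription factor, changed each gene.

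Interferon-gamma, made mainly by T cells and NK cells, binds a receptor of Ifngr1 and Ifngr2 and activates the kinases Jak1 and Jak2. STAT factors then bind gamma-activated sites (GAS), and Irf1, itself induced in this way, binds interferon-stimulated response elements (ISRE), which type I interferon also uses through Stat2 and Irf9. Gbp and Irg proteins gather on the vacuoles of intracellular bacteria and parasites and help to break them, and Gbp proteins also promote inflammasome activation. In the lung they are known from infections such as tuberculosis, in which mice without Irgm1 fare badly.

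The promoters of the members are shown first because they place the 3 kinds of site that the design bears on. From the RefSeq promoter table (build GRCm38.p6) 10 entries were read, for 8 of the 10 named genes. No entry was found for Gbp4, and Iigp1 was left out of the search, so its promoter was not examined. Below are 150 bases that end just before the outermost annotated base of each gene, written 5′ to 3′ on the strand of the gene, with matches to GAS (TTCNNNGAA) or ISRE (GAAA, any 2 bases and GAAA again, either strand) in capitals. Gbp7, with both kinds of site, Gbp2b, Gbp3 and Irgm1, with ISRE matches, and Irf1, with GAS alone, are printed because they stand for the types of promoter found.
Gbp2b, chr3:142594666-142594815, plus strand: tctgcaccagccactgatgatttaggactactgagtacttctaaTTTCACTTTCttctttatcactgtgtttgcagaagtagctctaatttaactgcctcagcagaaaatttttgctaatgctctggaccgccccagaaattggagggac
Gbp3, chr3:142559866-142560015, plus strand: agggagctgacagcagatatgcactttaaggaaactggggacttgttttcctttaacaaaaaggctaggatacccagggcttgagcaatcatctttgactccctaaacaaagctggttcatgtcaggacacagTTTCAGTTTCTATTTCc
Gbp7, chr3:142530186-142530335, plus strand: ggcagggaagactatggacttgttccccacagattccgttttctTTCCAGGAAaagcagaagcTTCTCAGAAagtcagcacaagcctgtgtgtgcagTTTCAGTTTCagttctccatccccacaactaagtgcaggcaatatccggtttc
Irgm1, chr11:48871421-48871570, minus strand: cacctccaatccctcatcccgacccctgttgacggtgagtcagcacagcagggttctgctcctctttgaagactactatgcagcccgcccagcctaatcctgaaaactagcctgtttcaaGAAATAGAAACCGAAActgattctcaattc
Irf1, chr11:53769864-53770013, plus strand: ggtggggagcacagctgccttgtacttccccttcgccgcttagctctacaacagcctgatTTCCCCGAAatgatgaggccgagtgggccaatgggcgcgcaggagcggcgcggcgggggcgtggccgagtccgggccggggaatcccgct

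In the 250 bases before each start site of that promoter set, ISRE matched in Gbp2b, Gbp2, Gbp7, Irgm2 and Igtp at 1 place each, and in Gbp3 and Irgm1 at 2 overlapping places each, which form the longer capital runs above. GAS matched in Gbp7 at 2 places and in Irgm2, Igtp and Irf1 at 1 each. In Gbp7, Irgm2 and Igtp the GAS lay upstream of the ISRE. Among all 32851 promoters of the set, 2.98% held an ISRE match, 7.02% a GAS match and 0.332% both. The AP-1 element TGANTCA, to which Fra-1 dimers bind, matched at 1 place each in Gbp2 and Irgm1 and in 6.75% of all promoters. The second start sites of Gbp3 and Irf1 held no match to any of the 3. A match is a run of letters, not a measured binding site, and no binding was measured here.

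**Figure D1:**
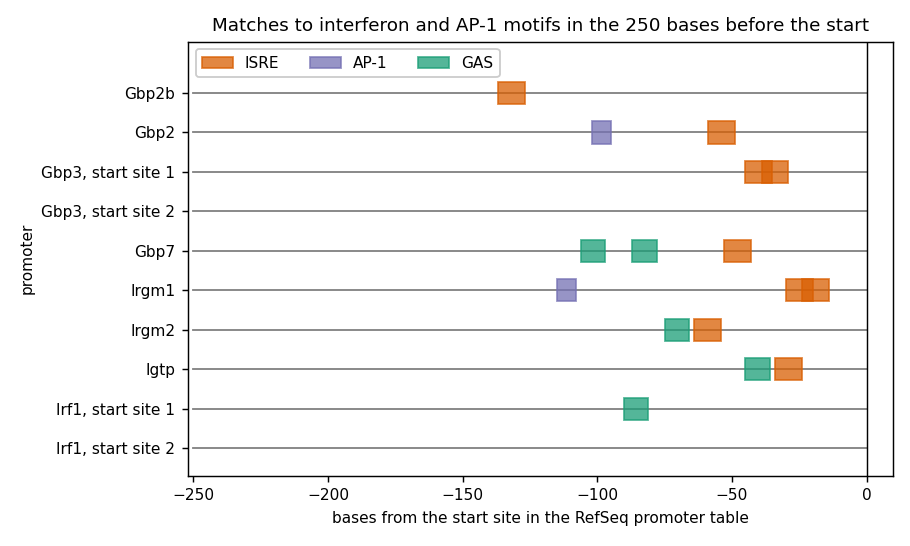
Positions of GAS, ISRE and AP-1 matches in the 250 bases before the start site, 1 line per promoter entry, with the x axis in bases from the start. ISRE boxes lie in 7 of the named genes, the GAS boxes of Gbp7, Irgm2 and Igtp lie upstream of an ISRE, and the overlapping ISRE boxes of Gbp3 and Irgm1 appear as darker bands.

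Signals are RMA values on the log2 scale, on which 1 unit is a 2-fold change, and a value belongs to its own cluster, so levels of different genes are not set against each other. Array medians lay between 7.16 and 7.22 in Fra-1 +/+ and between 7.14 and 7.19 in knockout mice. The labelled sex did not match in 12 of 12 arrays, in which Xist read 4.47 to 4.94 and the Y-linked gene Eif2s3y 8.52 to 8.93. The 10 lung epithelial and endothelial markers, among them the surfactant genes, averaged 12.02 to 12.61, so the defining genes of the labelled tissue were present. Fosl1, the gene for Fra-1, averaged 6.66 ± 0.25 (SD, n = 3 mice) in WTC and 6.50 ± 0.22 in KOC, and 8.10 ± 0.26 in WTT and 7.31 ± 0.02 in KOT. Neither genotype difference passed (limma adjusted p = 0.792 and 0.160). The bleomycin groups did not overlap, however, with a log2 difference of -0.80 for KOT against WTT, and the local-pooled-error test described further on called it (adjusted p = 0.00383). Whether this cluster lies in the deleted part is not given in the sources used here. KOT 80 moved least of the KOT mice. Over 2384 other clusters that rose in WTT, its median distance from the KOC mean was 0.29, against 0.39 in KOT 72 and 0.41 in KOT 81, and the members' responses are also given without it.

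Bleomycin raised 2 of the 7 members in Fra-1 +/+ mice and 5 of 7 in knockout mice, and no member fell. The members that rose in both genotypes were the immunity-related GTPases Iigp1 and Irgm1, by 3.03-fold and 2.21-fold in Fra-1 +/+ and by 3.66-fold and 2.48-fold in knockout mice. Gbp3 (1.95-fold), Gbp7 (1.57-fold) and Irf1 (1.36-fold) passed in knockout mice and not in Fra-1 +/+ mice, but the difference between the 2 responses passed for none of the 7. A call required a limma p, adjusted by Benjamini and Hochberg over the 23410 clusters with a symbol, under 0.05. By that measure 10.2% of all clusters rose in WTT and 7.42% in KOT. The counts rested on single mice. In Fra-1 +/+ mice 1 member passed without WTC 157, WTC 158 or WTT 164, and 3 without KOT 80 or KOT 81. In knockout mice 1 passed without KOC 53, KOT 72 or KOT 81, 2 without KOC 55, 3 without KOC 67 or WTC 158, and 6 without KOT 80. The median log2 fold change of the members was 0.31 in Fra-1 +/+ and 0.96 in knockout mice, against 0.02 over all clusters in each. The first was 0.20 without WTT 164, and the second was 0.62 without KOT 81 and 1.33 without KOT 80.

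Iigp1 encodes Irga6, an effector GTPase that loads onto parasite vacuoles, and it had the largest response of the members. Its signal was 8.0, 7.19 and 7.53 in WTC 76, 157 and 158, and 8.79, 9.08 and 9.64 in WTT 160, 161 and 164. In knockout mice it was 7.40, 7.58 and 7.86 in KOC 53, 55 and 67, and 9.80, 8.57 and 10.09 in KOT 72, 80 and 81. Every bleomycin-treated mouse lay above every PBS mouse of either genotype. The log2 fold change in Fra-1 +/+ mice was 1.60 (adjusted p = 0.00838), and that in knockout mice 1.87 (adjusted p = 0.00511), each with an SE of 0.35. Both calls held in all 12 fits that left out 1 mouse, with 1.36 to 1.81 and 1.57 to 2.33, the last without KOT 80. The groups ran WTC, KOC, WTT, KOT in order of their means (7.57, 7.61, 9.17 and 9.49), and the steps between genotypes, 0.04 with PBS and 0.31 with bleomycin, were smaller than their SE of 0.35.

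Irgm1 is a regulatory GTPase of host membranes that keeps the effectors in check, and it ran close to Iigp1. It read 8.74, 8.43 and 8.58 in WTC, and 9.49, 9.57 and 10.11 in WTT. In knockout mice it read 8.54, 8.56 and 8.71 in KOC, and 10.25, 9.0 and 10.49 in KOT. Again no bleomycin-treated mouse overlapped a PBS mouse, and KOT 80 was the lowest of the treated. The change in Fra-1 +/+ mice was 1.14 (adjusted p = 0.0210), and that in knockout mice 1.31 (adjusted p = 0.0142), each with an SE of 0.31. The first call was lost without WTC 157, WTC 158 or WTT 164 (0.95 to 1.14), and the second without KOC 53, KOT 72 or KOT 81 (1.02 to 1.28). Without KOT 80 the knockout value was 1.77. The other regulators of this class, Irgm2 and Igtp, share 1 cluster, which cannot tell them apart. In knockout mice it rose by 1.11 (adjusted p = 0.0358), and in Fra-1 +/+ mice it showed 0.72 (adjusted p = 0.134), each with an SE of 0.32. The call in knockout mice was lost without KOC 53, KOC 55, KOT 72 or KOT 81, and without KOT 80 the Fra-1 +/+ value passed as well (adjusted p = 0.0198) and the knockout value was 1.55. Its values in KOT 72, 80 and 81 were 9.55, 8.38 and 9.86, of which KOT 80 lay within the KOC range of 8.0 to 8.43.

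**Figure D2:**
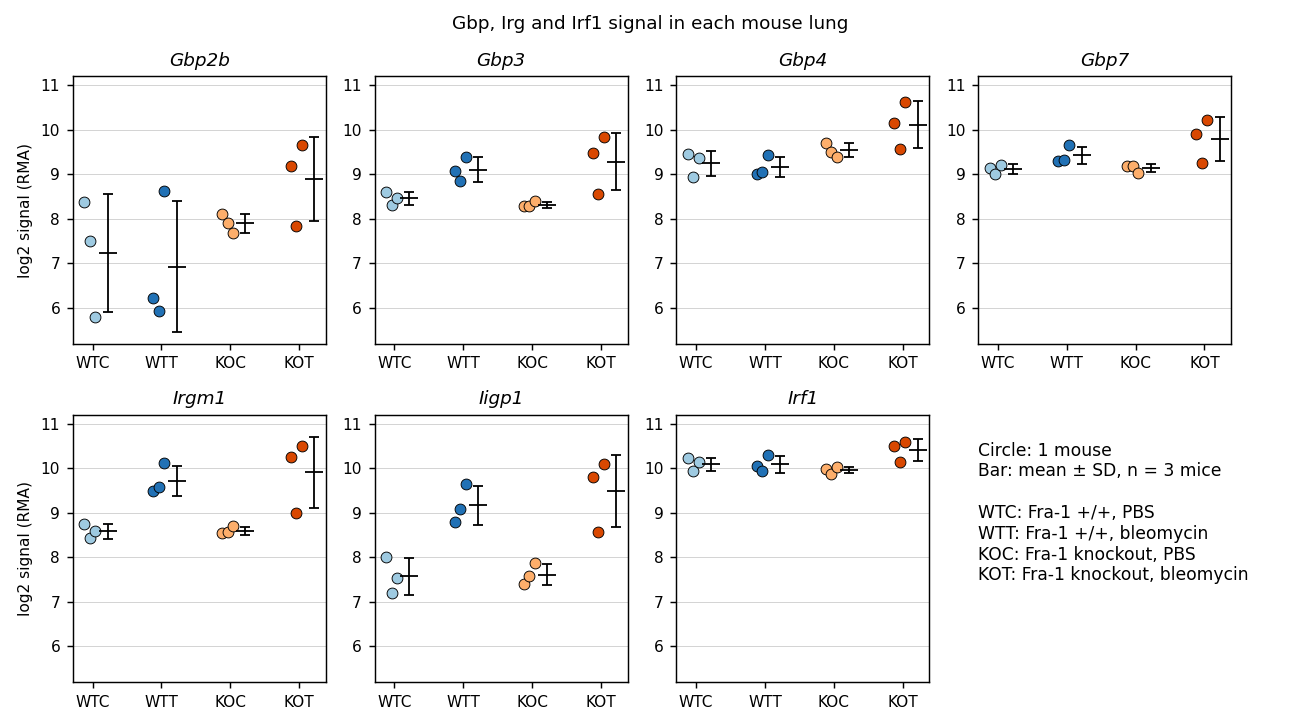
Log2 signal of the 7 members in each mouse, with circles for mice and bars for the mean ± SD of 3 mice per group. Iigp1 and Irgm1 lie higher in every bleomycin-treated mouse than in any PBS mouse, Gbp2b spreads from 5.79 to 8.62 within Fra-1 +/+ mice, and KOT 80 is the lowest KOT mouse in all 7 panels.

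Among the guanylate-binding proteins, Gbp3 and Gbp7 lie beside each other in a cluster of Gbp genes on chromosome 3. Gbp3 read 8.60, 8.32 and 8.46 in WTC and 9.08, 8.85 and 9.40 in WTT. In knockout mice it read 8.28, 8.28 and 8.41 in KOC and 9.47, 8.56 and 9.83 in KOT. Treated and PBS mice did not overlap in either genotype. The change in knockout mice was 0.96 (SE 0.25, adjusted p = 0.0244), and in Fra-1 +/+ mice, with the same SE, it was 0.64 (adjusted p = 0.0948). Without KOC 53, KOC 55, KOT 72 or KOT 81 the knockout call was lost (0.69 to 0.94), and without KOT 80 it was 1.33. The Fra-1 +/+ value passed without KOT 80 or KOT 81, whose spread enters the shared error (adjusted p = 0.00842 without KOT 80). Gbp7 followed the same course at a smaller size. It went from 9.15, 9.0 and 9.22 to 9.31, 9.33 and 9.65 in Fra-1 +/+, and from 9.20, 9.19 and 9.03 to 9.90, 9.26 and 10.22 in knockout mice. The groups did not overlap, and the change, with an SE of 0.19, was 0.31 (adjusted p = 0.299) in the former and 0.65 (adjusted p = 0.0406) in the latter. The Gbp7 call held in only 3 of the 12 fits without 1 mouse. It was lost when any of WTC 76, WTC 157, WTC 158, WTT 161, KOC 53, KOC 55, KOC 67, KOT 72 or KOT 81 was left out (0.44 to 0.69), and it was 0.92 without KOT 80.

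A cluster that carries both Gbp2 and Gbp2b, which are near neighbours of like sequence, rose with bleomycin in Fra-1 +/+ mice by 0.71 (adjusted p = 0.0447) and in knockout mice by 0.85 (adjusted p = 0.0270), each with an SE of 0.23. Its treated mice read 9.75, 9.85 and 10.26 in WTT and 9.94, 9.33 and 10.45 in KOT, all above the PBS range of 8.96 to 9.43 except KOT 80, which was still above every KOC mouse. The Fra-1 +/+ call held in only 3 of 12 fits without 1 mouse, those without WTT 160, KOT 80 or KOT 81 (0.56 to 0.82 over all 12). The knockout call was lost without KOC 53, KOC 55, KOT 72 or KOT 81 (0.58 at the lowest), and was 1.14 without KOT 80.

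Gbp4, on another chromosome than Gbp3 and Gbp7, was the member whose KOT and WTT mice stood furthest apart in units of their error. It read 9.45, 8.94 and 9.37 in WTC and 9.01, 9.06 and 9.44 in WTT, so the Fra-1 +/+ groups overlapped. It read 9.71, 9.51 and 9.40 in KOC and 10.15, 9.57 and 10.63 in KOT. The lowest KOT mouse was above the highest WTT mouse, while KOT 80 lay within the KOC range. With an SE of 0.23, the response was -0.08 in Fra-1 +/+ mice (adjusted p = 0.849) and 0.58 in knockout mice (adjusted p = 0.121). The knockout value was 0.85 (adjusted p = 0.0126) without KOT 80 and 0.32 (adjusted p = 0.409) without KOT 81. It passed in only 1 of the 12 fits without 1 mouse. KOT against WTT was 0.95 (SE 0.23), a 1.93-fold difference that did not pass over all clusters (adjusted p = 0.245). The means ran WTT, WTC, KOC, KOT (9.17, 9.25, 9.54 and 10.12), and no neighbouring pair that was tested passed. A second cluster, shared by Gbp4 and Gbp6, Gbp8, Gbp9, Gbp10 and Gbp11, rose by 0.95 in knockout mice (adjusted p = 0.0324) and showed 0.24 in Fra-1 +/+ mice (adjusted p = 0.581), each with an SE of 0.27. The call was lost without any KOC mouse, KOT 72 or KOT 81 (0.62 at the lowest), and the value was 1.34 without KOT 80. The shared cluster was lower in KOT 80 (9.17) than in KOT 72 (10.06) and KOT 81 (10.62). Its KOT against WTT difference was 0.65 (limma adjusted p = 0.427), and the groups overlapped. The local-pooled-error test described further on called this difference (0.84 between medians, adjusted p = 0.00344).

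Gbp2b, the gene earlier called Gbp1, varied more between mice of a group than 99.9% of all clusters, with an SD of 1.10 around the group means. It read 8.38, 7.51 and 5.79 in WTC 76, 157 and 158, and 6.22, 5.94 and 8.62 in WTT 160, 161 and 164. It read 8.11, 7.90 and 7.68 in KOC, and 9.20, 7.84 and 9.67 in KOT. The 3 lowest mice, WTC 158, WTT 160 and WTT 161, were all Fra-1 +/+ and read 6.22 or less, while every other mouse read 7.51 or more. For Gbp3, next to it on the chromosome, the same 3 mice read 8.46, 9.08 and 8.85, and for the cluster shared by Gbp2 and Gbp2b they read 9.43, 9.75 and 9.85. In both, WTC 158 lay above at least 1 WTC mouse and both WTT mice lay above every PBS mouse, although the lowest WTT value of each of the 7 members was in WTT 160 or WTT 161. The response to bleomycin, with an SE of 0.75, was -0.30 in Fra-1 +/+ mice (adjusted p = 0.827) and 1.01 in knockout mice (adjusted p = 0.423). The knockout value was 1.54 without KOT 80 and 0.62 without KOT 81. KOT against WTT was 1.98 with the same SE, 3.93-fold, and did not pass over all clusters (adjusted p = 0.397), and the groups overlapped because WTT 164 lay above KOT 80.

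Irf1, which binds ISRE sites and is among the first genes that interferon-gamma switches on, read 10.23, 9.93 and 10.13 in WTC and 10.05, 9.93 and 10.30 in WTT. It read 9.98, 9.88 and 10.02 in KOC and 10.49, 10.14 and 10.60 in KOT. The Fra-1 +/+ groups lay over each other, and the knockout groups did not overlap. With an SE of 0.13 the change was 0.00 in the former (adjusted p = 0.997) and 0.45 in the latter (adjusted p = 0.0394), and the knockout call was lost without WTC 158, KOC 53, KOC 55, KOC 67, KOT 72 or KOT 81 (0.35 to 0.48). It was 0.58 without KOT 80. A second Irf1 cluster, built from a cDNA clone, behaved differently. In Fra-1 +/+ mice it fell by 0.31 (adjusted p = 0.0404), and in knockout mice it showed 0.14 (adjusted p = 0.382), each with an SE of 0.10. In both clusters the knockout response exceeded the Fra-1 +/+ response by 0.45, with an adjusted p of 0.963 and 0.845.

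**Figure D3:**
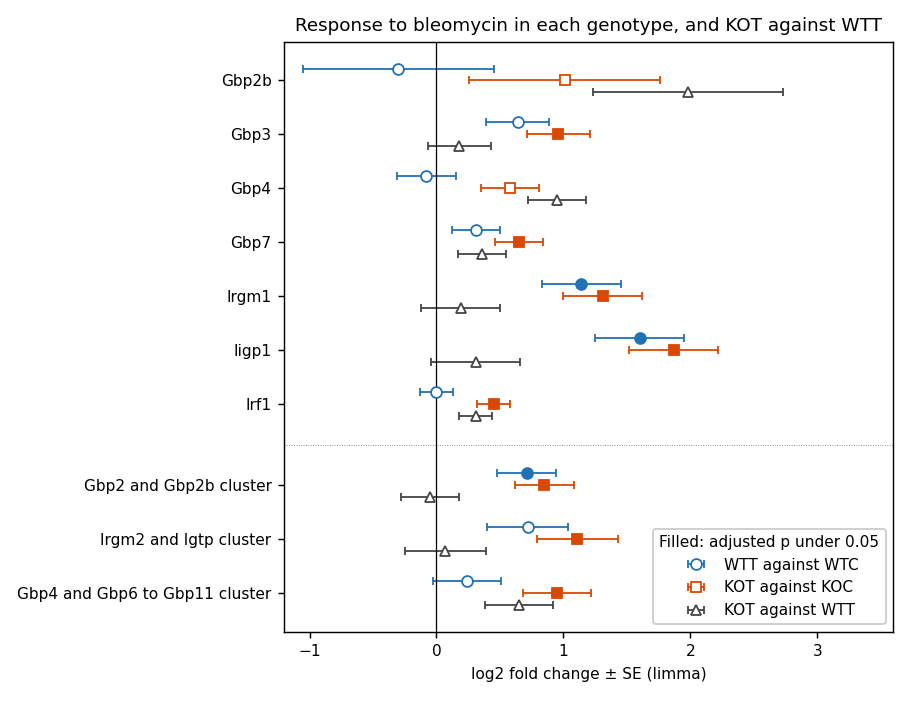
Log2 fold change ± SE from limma for the 7 members and, below the dotted line, the 3 clusters that carry several symbols, with filled symbols for an adjusted p under 0.05. Filled circles for Fra-1 +/+ mice appear at Irgm1, Iigp1 and the Gbp2 and Gbp2b cluster, filled squares for knockout mice also at Gbp3, Gbp7, Irf1 and the other shared clusters, and no KOT against WTT triangle is filled.

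By overlap of single mice, every treated mouse lay above every PBS mouse for 4 of 7 members in Fra-1 +/+ mice and for 5 of 7 in knockout mice, where 18.3% and 18.8% of all clusters did so. The methods of the study used a local-pooled-error test (LPE), which takes the error from clusters of like intensity and compares medians. At an adjusted p under 0.01, LPE called 2 members higher in WTT and 6 higher in KOT, against 3.45% and 4.44% of all clusters. It called 1 lower in WTT, against 4.47%. The lower member was Gbp2b (-1.29, adjusted p = 3.4e-08), and its own spread between mice does not enter that error.

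Between genotypes no member passed. With PBS (KOC against WTC) limma called 0 of 7, where it called 0.0128% of all clusters. LPE also called 0, and 0 passed before adjustment (p under 0.05). For these 0 counts no share of all clusters is given, so they have no background to be read against. The log2 differences ran from -0.14 for Gbp3 to 0.67 for Gbp2b, with a median of 0.02. With bleomycin (KOT against WTT) limma also called 0 of 7, where 0.0427% of all clusters were called. All 7 differences were positive, from 0.18 for Gbp3 to 1.98 for Gbp2b, with a median of 0.31 against -0.01 over all clusters. That median was 0.15 without KOT 81, 0.47 without WTT 164 and 0.65 without KOT 80. At an unadjusted p under 0.05, Gbp2b, Gbp4 and Irf1 were higher in KOT, 3 of 7 where 4.27% of all clusters were. LPE called Gbp2b (2.98 between medians, adjusted p = 1.3e-50) and Gbp4 (1.08, adjusted p = 1.4e-05) higher, against 0.555% of all clusters. Here too the wide spread of Gbp2b between mice does not enter the LPE error. The cluster shared by Gbp2 and Gbp2b showed -0.05 (limma adjusted p = 0.959). At the clusters used for the 7 members, Gbp4 alone had no overlap between KOT and WTT. This was 1 of 7 where 6.92% of all clusters had every KOT value the higher. The second Irf1 cluster, which is not counted among the 7, had none either. Without KOT 81 the differences of Gbp3 and Irgm1 turned to -0.09 and -0.10.

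The difference between the responses, knockout minus Fra-1 +/+, was positive for all 7 members, from 0.17 for Irgm1 to 1.31 for Gbp2b, with a median of 0.35, which was 0.13 without KOT 81 and 0.68 without KOT 80. limma called 0 of 7 and 0% of all clusters, and LPE was not run for it. At an unadjusted p under 0.05 Irf1 (0.45, SE 0.19) was positive, 1 of 7 where 2.99% of all clusters were. The 7 differences share the same 12 mice, so their common sign counts as 1 observation of these mice rather than 7. Without KOT 81, Irgm1 and Iigp1 turned to -0.12 and -0.03.

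The members moved together from mouse to mouse within a group. Over the 15 pairs without Gbp2b, Pearson's r of the deviations from group means over 12 arrays ran from 0.84 to 0.97, with a median of 0.90, as a description over arrays that share group and RNA. Gbp2b followed the others less closely, at 0.57 to 0.68 over its 6 pairs. Without KOT 80 the medians were 0.77 and 0.59. Irgm1 went most closely with Gbp3 (0.97) and Iigp1 (0.96), and Gbp4 with Gbp7 (0.94). In KOT 80 all 7 members were the lowest of their group, in KOT 81 all 7 were the highest, and in WTT 164 all 7 were the highest of the WTT mice. Over the mean of the 7 members against WTC, KOT 72, 80 and 81 stood at 1.28, 0.37 and 1.60, and WTT 160, 161 and 164 at 0.23, 0.21 and 0.98. The place of KOT 80 turned on Gbp2b. Without that gene the means were 1.16, 0.33 and 1.46 in KOT and 0.44, 0.46 and 0.91 in WTT, so KOT 80 lay below every WTT mouse, while with it KOT 80 lay between them. KOT 72 and KOT 81 lay above all WTT mice either way.

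Outside the members, the 5 genes whose level over the 12 arrays went most closely with the mean standardized level of the members were Ifit3b, Gbp11, Orm2, 9330175E14Rik and Znfx1, each with r = 0.95, and with 0.80 to 0.91 once the 2 arrays furthest from the median were left out. By deviations from the group means they were Znfx1, Oasl1 and Stat2 (each 0.98), and Ddx60 and Herc6 (each 0.97). Oasl1, Ddx60 and Herc6 are interferon-stimulated antiviral genes. By level rather than deviation, the genes closest to Gbp2b were the eosinophil chemokine Ccl11 (0.91), Ptcd2 (0.91), the complement protease gene C1ra (0.88), Tor3a (0.84) and Thoc2 (0.82). These are the highest of 21781 clusters and were picked for that.

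Of 9 other measured genes of the 2 families, 0 were called higher in WTT and 4 in KOT, where 10.2% and 7.42% of all clusters were. Their medians were 0.19 and 0.85. Both counts rested on single mice. Without KOT 80 they were 4 and 7, without KOT 81 1 and 1, and the KOT count was also 1 without KOC 53, KOC 55 or KOT 72. The 4 called were Gbp5, which promotes inflammasome assembly (0.90 with adjusted p = 0.0934 in Fra-1 +/+, 1.46 with 0.0162 in knockout mice), and the Irg genes Gm12250 (0.73 with 0.195, 1.41 with 0.0246), Gm4951 (0.79 with 0.175, 1.33 with 0.0358) and Gm4841 (0.54 with 0.0536, 0.87 with 0.00777). Irgq and the testis-type gene Irgc1 showed -0.09 and 0.02 in Fra-1 +/+ and 0.06 and -0.10 in knockout mice. The difference between the responses passed for none of the 9.

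The ligand itself gave little signal change. Ifng lay between 6.09 and 6.73 in all 12 mice, under every array median, and whether it stood above background was not tested. Its change, with an SE of 0.13, was 0.09 in Fra-1 +/+ mice (adjusted p = 0.682) and 0.30 in knockout mice (adjusted p = 0.162). Of 16 genes for the source and receptor of interferon-gamma, 2 rose and 3 fell in WTT, and 3 rose and 1 fell in KOT, where 10.2% and 7.42% of all clusters rose and 11.3% and 7.98% fell. With so few genes these counts do not set the list apart from all clusters. The number that rose in KOT was 1 without KOC 53 or KOT 81, and 2 fell in KOT without KOC 67. The receptor subunit Ifngr2 rose in both, by 0.36 (adjusted p = 0.00448) and 0.31 (adjusted p = 0.0115), while Ifngr1 showed 0.06 and -0.12 with no call. Of the receptor's kinases, Jak2 rose by 0.59 and 0.49 (adjusted p = 0.00457 and 0.0155), and Jak1 showed 0.03 and 0.08 with no call. The interleukin 18 receptor gene Il18r1 fell by 0.61 and by 0.63 (adjusted p = 0.00119 and 0.00151). Il12rb2, a subunit of the interleukin 12 receptor that drives interferon-gamma production, fell by 0.66 in Fra-1 +/+ mice (adjusted p = 0.00279), showed -0.31 in knockout mice (adjusted p = 0.107), and was 0.61 higher in KOT than in WTT without passing (adjusted p = 0.160). Il12b, also under every array median, rose by 0.36 in knockout mice (adjusted p = 0.00930).

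Among 13 signalling genes and regulators, 7 rose in WTT and 8 in KOT and none fell. Of all clusters 10.2% and 7.42% rose, and 11.3% and 7.98% fell. Irf7, which amplifies type I interferon, rose by 2.71 and 2.70 (adjusted p = 8.5e-04 and 0.00137). Stat3 rose by 0.40 and 0.51 and Irf9 by 0.58 and 0.65, with adjusted p between 0.00455 and 0.0110. The feedback inhibitors rose in both genotypes, Socs1 by 0.68 and 0.60 (adjusted p = 0.0107 and 0.0240) and Socs3 by 1.81 and 1.57 (adjusted p = 4.6e-04 and 0.00135). The difference between responses passed for none of the 13.

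Of 23 other targets of interferon-gamma, 6 rose in WTT and 12 in KOT, where 10.2% and 7.42% of all clusters rose. Their medians were 0.26 and 0.44, and no gene was called lower. The WTT count was 3 without WTC 158, 2 without WTT 164 and 11 without KOT 80, and the KOT count was 6 without KOT 72 or KOT 81 and 7 without KOC 53 or KOC 55. The T cell chemokines Cxcl10 (3.48 and 4.05, adjusted p = 0.00251 and 0.00172) and Cxcl9 (1.88 and 3.21, adjusted p = 0.0435 and 0.00480) and the Fc receptor gene Fcgr1 (2.53 and 2.34, adjusted p = 0.00119 and 0.00248) rose in both. Wars, a tryptophan tRNA synthetase, rose by 0.43 in knockout mice (adjusted p = 0.00689) and showed 0.22 in Fra-1 +/+ mice (adjusted p = 0.0953). Among genes of the type I interferon response, 14 of 18 rose in WTT and 17 of 18 in KOT, against 10.2% and 7.42% of all clusters. Their medians were 1.32 and 1.48. The WTT count was 9 without WTT 164, and the KOT count was 11 without KOC 53, 9 without KOC 55, 7 without KOT 72 and 8 without KOT 81. They included Zbp1, a sensor of viral nucleic acid (2.05 and 2.48, adjusted p = 0.00334 and 0.00191), Usp18 (1.16 and 1.63, adjusted p = 0.00798 and 0.00205), Bst2 (1.07 and 1.22, adjusted p = 0.00230 and 0.00172) and Oas1a (1.17 and 1.38, adjusted p = 0.00338 and 0.00217). Many of these are also induced by interferon-gamma, so the list does not separate the 2 interferons.

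Of 20 partners of the GTPases in autophagy and the inflammasome, 4 rose and 3 fell in WTT, and 1 rose and 2 fell in KOT. Of all clusters 10.2% and 7.42% rose, and 11.3% and 7.98% fell. On so few genes these counts do not set the list apart from all clusters. The 4 that rose in WTT became 1 without WTC 157, WTC 158 or WTT 164. The 1 that rose in KOT became 3 without KOT 80 and 0 without WTC 76, WTT 160, any KOC mouse, KOT 72 or KOT 81. Gabarapl2 and Gabarapl1, of the ATG8 family that directs the GTPases to vacuoles, fell by 0.46 and by 0.58 in Fra-1 +/+ and by 0.33 and by 0.54 in knockout mice, with adjusted p between 6.2e-04 and 0.00431. The inflammasome adaptor gene Pycard rose by 0.91 and 0.53 (adjusted p = 0.00287 and 0.0493), and the sensor gene Nlrp3 rose by 1.22 in Fra-1 +/+ mice (adjusted p = 0.0233) and showed 0.79 in knockout mice (adjusted p = 0.141).

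**Figure D4:**
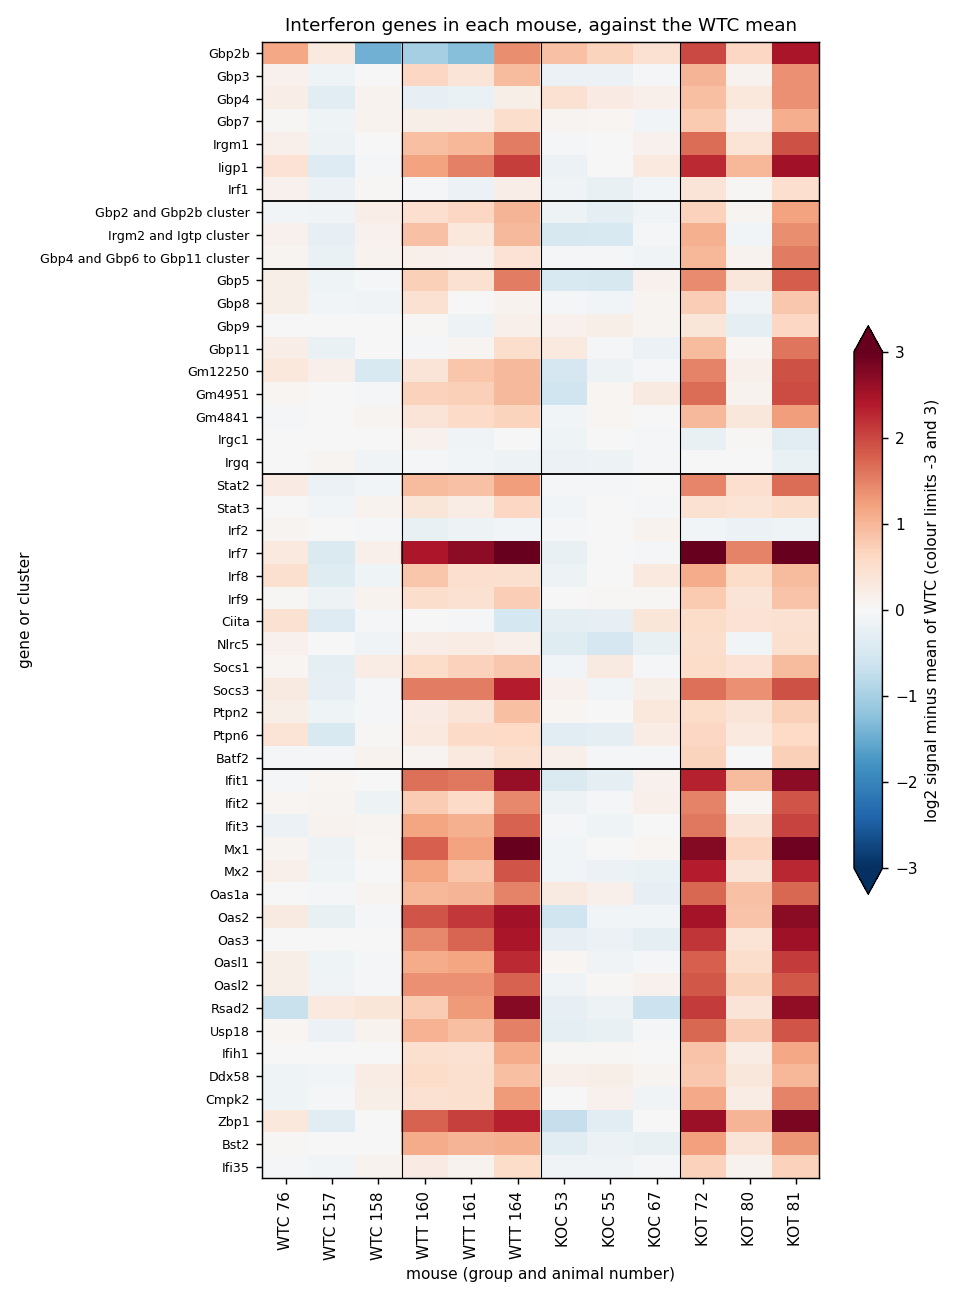
Log2 signal minus the WTC mean for each mouse (columns) and each member, shared cluster, other family gene, signalling gene and type I target (rows, in 5 blocks), with red for higher and blue for lower. The bleomycin-treated mice are redder in most rows, KOT 80 is the palest of the KOT columns, and the Gbp2b row is blue in WTC 158, WTT 160 and WTT 161.

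Markers of cell types moved beside these values, and their part in the results was not tested. The mean of 7 macrophage markers was 9.71 to 10.02 in WTT and 9.76 to 9.94 in KOT, over 9.10 to 9.28 in all PBS mice. Of the 7, 5 and 6 were called higher, where 10.2% and 7.42% of all clusters were. The mean of 8 neutrophil markers was 8.55 to 10.82 in WTT and 7.93 to 9.45 in KOT, and its lowest value was in KOT 80. In each, 1 of the 8 was called higher (Mmp8), near those shares of all clusters. All 8 were called in WTT without WTT 160, and none in KOT without KOC 55, KOT 72 or KOT 81. The mean of 9 T cell markers was 7.34 to 7.85 in WTT and 7.87 to 8.20 in KOT, with no overlap, and 7.36 to 8.54 in WTC and 7.74 to 8.31 in KOC. The 8 NK cell markers gave 6.59 to 7.24 in WTT and 7.09 to 7.36 in KOT, and the 6 B cell markers 7.26 to 8.05 in WTT and 8.24 to 9.06 in KOT. For T, NK and B cells alike 0 of the markers were called between KOT and WTT, where 0.0427% of all clusters were. Those higher in KOT at an unadjusted p under 0.05 numbered 2 of 9, 3 of 8 and 3 of 6, against 4.27% of all clusters. In WTT 1 T cell, 2 NK cell and 2 B cell markers fell against WTC, where 11.3% of all clusters fell. In KOT none was called against KOC, where 7.42% of all clusters rose and 7.98% fell. Leaving out 1 mouse took the WTT counts to 1 to 2, 0 to 4 and 1 to 4. In KOT 1 NK cell marker rose without KOT 80 and 1 fell without WTT 160 or WTT 164. No value on this log2 scale is a true 0. KOT 80 also had the highest lung marker mean of the KOT mice, 12.38 against 12.13 and 12.14, and its type I target mean was 8.59 against 9.84 and 10.07.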

How the data were processed

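The authors hybridised total lung RNA to Affymetrix MoGene 1.0ST arrays, quantile-normalised the probe signals over all samples and summarised them per transcript cluster with RMA in Affymetrix Power Tools (version not given in the sources used here). The deposited values are on the log2 scale, for 35556 clusters and 12 arrays, and were used as deposited, without the authors' filter on detection above background. The platform's gene table gives 21789 clusters 1 symbol, 1621 several and 12146 none.

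Groups came from the sample titles. limma 3.58.1 (R 4.3.3) fitted a mean per group to all 12 arrays with moderated variances and 8 residual degrees of freedom, and p-values are two-sided. An SE thus draws on the spread in every group, and RMA compresses large fold changes. Exact tests of 3 mice against 3 cannot go below p = 0.1, so single-gene tests lean on variances pooled over clusters, and the number of arrays limits the precision. LPE was rewritten (100 intensity bins, spline with 10 degrees of freedom). The functions were tested on simulated data.

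The members and gene lists were chosen with earlier results of these data known. The text names every member, Fosl1, up to 4 genes per list with the smallest p in KOT against WTT or a response to bleomycin, Ifng, Ifngr1, Ifngr2, Jak1, Jak2, Socs1 and the genes most like the members. Some genes of the lists are not reported here. The array's genome build is not stated in the files, and coordinates are those of the RefSeq promoter table.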

Additional observations from a re-analysis of the deposited data

Results flagged for a closer look

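Irf1 was flagged because its genotype difference was -0.13 with PBS and 0.31 with bleomycin, each with an SE of 0.13. Neither passed (limma adjusted p = 0.809 and 0.435), and the genotypes overlapped in both treatments. All 3 KOC mice lay below the WTC mean and all 3 KOT mice above the WTT mean. The change between the 2 differences, knockout minus Fra-1 +/+ response, was 0.45. The limma test of this difference did not pass over all clusters (adjusted p = 0.963). The second Irf1 cluster gave the same 0.45, though there the response in Fra-1 +/+ mice was downward.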

How the results depend on the processing

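No paired analysis was possible because no animal number occurs in 2 groups. The counts of members called stayed within 1.5 times of 2 in WTT against WTC, 5 in KOT against KOC and 0 in the other comparisons, except as follows, and the cause was not tested. Stricter thresholds, fewer arrays and more clusters tested lower a count by construction. LPE called 2 in KOT against WTT. An adjusted p under 0.01 left 1 in WTT and 1 in KOT. In KOT, using only the 6 arrays of the comparison left 2, equal array medians left 3, and testing all clusters of the array left 3. Without 1 mouse the counts ran from 1 to 3 in WTT and from 1 to 6 in KOT, and were 0 in every such fit for the other comparisons. Every sign that turned belonged to a value that limma had not called. For KOC against WTC, LPE gave -0.02 for Irgm1, and cyclic loess -0.02 for Gbp7 and -0.01 for Irgm1. With the shared clusters in place of their own, Gbp2b gave 0.71 in WTT against WTC, -0.19 in KOC against WTC and -0.05 in KOT against WTT, and Gbp4 gave 0.24 and -0.06 in the first 2 of these. Leaving out 1 mouse took Gbp2b in WTT against WTC from -1.15 to 0.27 and Gbp4 from -0.24 to 0.02. In KOC against WTC the range was -0.05 to 1.24 for Gbp2b, -0.05 to 0.07 for Gbp7, -0.06 to 0.10 for Irgm1 and -0.15 to 0.25 for Iigp1. In KOT against WTT it was -0.09 to 0.54 for Gbp3 and -0.10 to 0.65 for Irgm1, and in the difference between responses -0.12 to 0.63 for Irgm1 and -0.03 to 0.73 for Iigp1. Whether a weak signal stood above background was not tested.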
